A study of Mus musculus with 6 samples.

Results

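The 38 genes described here encode Toll-like receptors, the adaptor, kinases and ligases below them, the NF-kB subunits and their inhibitors, and the TNF and IL-1 genes, receptors and adhesion molecules tied to that pathway. They were taken by symbol from the 28450 genes of a liver transcriptome table, and all 38 were found. The samples were livers of male mice, 12 weeks old and fed a normal diet: 3 Acsm3 knockout (KO) mice and 3 control mice, whose genotype is labelled WT. Acsm3 encodes a medium-chain acyl-CoA synthetase of mitochondria. The sources used here do not say how Acsm3 was disrupted, in which cells, or on which strain background. Each mouse gave 1 library of poly(A)-selected RNA, and the deposited values are FPKM, fragments scaled by transcript length and by the library total.

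Toll-like receptors bind microbial molecules at the cell surface or in endosomes and, through the adaptor MyD88, IRAK kinases and TRAF ubiquitin ligases, switch on the IKK complex. IKK marks the IkB inhibitors for destruction, which frees NF-kB dimers to enter the nucleus and transcribe cytokines, adhesion molecules and their own inhibitors. In liver this pathway is best known from Kupffer cells, which meet bacterial products arriving in portal blood, though hepatocytes, endothelial cells and stellate cells carry parts of it.

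Acsm3 stood at 0.668, 2.92 and 1.08 FPKM in KO mice 1, 2 and 3, against 33.2, 34.4 and 32.2 FPKM in control mice 1, 2 and 3. It was lower in all 3 libraries labelled KO, with a log2 fold change of -3.84 ± 0.29 (limma, adjusted p = 0.00338). The steps between low FPKM values implied 15300000 to 16200000 fragments in KO libraries and 15700000 to 16300000 in control libraries, so that 1 FPKM of a gene of 2 kb stands for 30.6 to 32.7 fragments. On the first principal component, with 56.1% of the variance, KO mice 1, 2 and 3 lay at 24.6, 27.7 and 10.1 and the control mice between -25.9 and -17.3, so KO 3 was the KO mouse nearest to the controls. Fold changes below are differences of log2(FPKM + 1), KO minus control, ± limma's moderated SE (3 mice a group). For genes with low FPKM this scale gives too small a change. A gene was tested where its mean over the 6 mice was at least 1 FPKM, and it was called where its Benjamini-Hochberg adjusted p over the 10996 genes tested was under 0.05.

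Of the 38 genes, 33 were tested, and 11 of these were higher in KO livers while 0 were lower. Of all genes tested, 13.9% were called higher and 2.61% lower. The 11 were the receptors Tlr2, Tlr4 and Tlr8, the lipopolysaccharide co-receptor gene Ly96, the ligase gene Traf3, the IKK scaffold gene Ikbkg, the NF-kB subunit gene Nfkb2, the regulators Tnfaip3 and Nfkbiz, the IL-1 antagonist gene Il1rn and the adhesion molecule gene Icam1. For 22 tested genes the adjusted p was at or over 0.05, and for 9 of these it was under 0.1. Of all 10996 genes tested, 1285 had an adjusted p from 0.05 to under 0.1. At an unadjusted p under 0.05, 23 of the 33 passed in either direction, all with higher values in KO livers. The same mark was passed by 3887 of all 10996 genes tested. Tlr1, Tlr4, Tlr7, Tlr8 and Tnfaip3 reached the 1 FPKM mean only through the KO mice, so these 5 had to differ in order to be tested at all.

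In 30 of the 38 genes all 3 KO mice were above all 3 control mice, and in the other 8 the groups overlapped. Among the 33 tested the count was 25 above and 0 below, beside 33.9% above and 7.91% below of all genes tested. The log2 fold change was above 0 in 33 of 33, beside 71.2% of all genes tested, though the signs of Irak4, Traf6 and Nfkbia turned after either rescaling. The median log2 fold change of the 33 was 0.53, beside 0.13 for all genes tested. After median-ratio rescaling these medians were 0.43 and -0.00, and fold changes given here are to be read against the 0.13 of the typical tested gene. That rescaling called 9 of the 33 genes higher, beside 7.57% of all genes higher and 6.7% lower, and quantile normalization called 7, beside 6.84% higher and 5.48% lower. The values of all 38 genes summed to 264, 279 and 204 FPKM in KO mice 1, 2 and 3, against 180, 169 and 159 FPKM in control mice 1, 2 and 3. KO 3 was the lowest KO mouse in 27 of the 38 genes, or 71.1%, and it was the lowest in 56.3% of all genes tested.

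**Figure D1:**
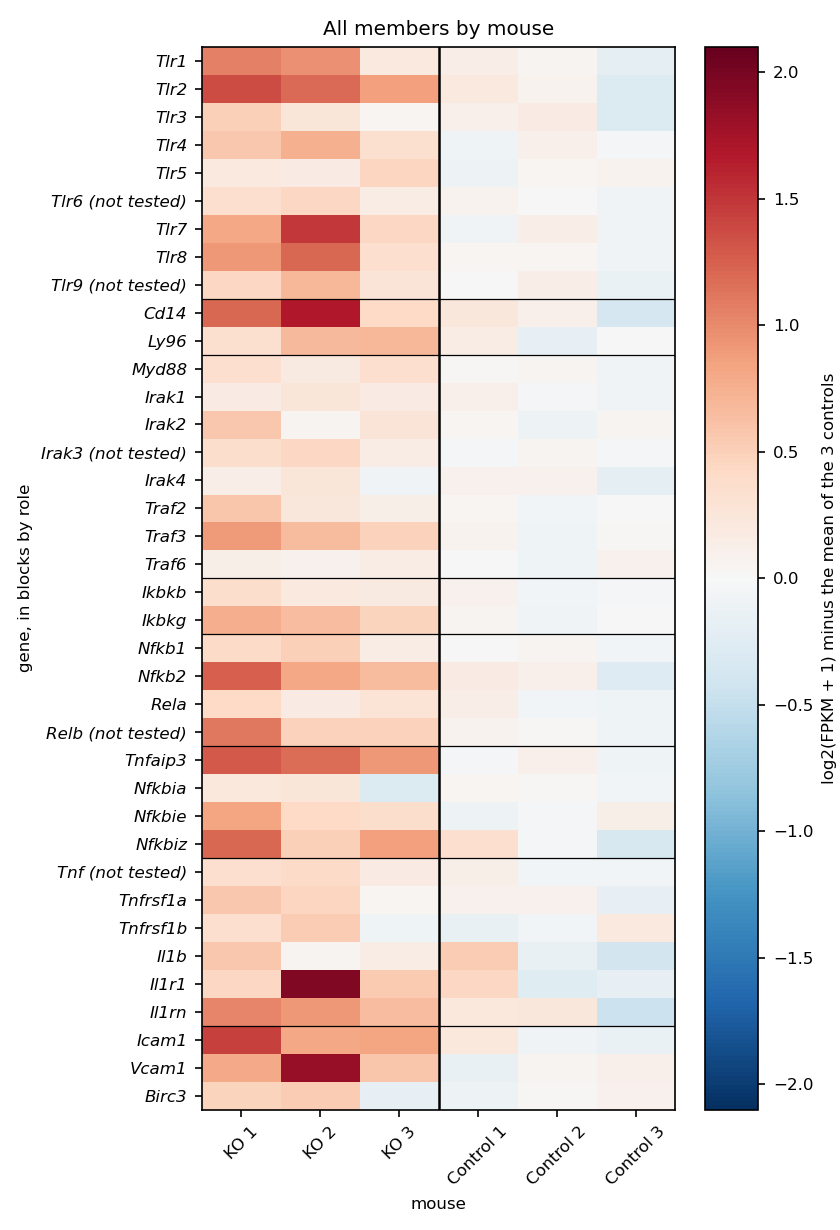
Each row is 1 of the 38 genes, in blocks by role, and each column 1 mouse, with KO mice left of control mice. Colour gives log2(FPKM + 1) minus the mean of the 3 control mice. Most rows are redder in the 3 KO columns, KO 3 is the palest of these in most blocks, and Il1r1 and Vcam1 are darkest in KO 2.

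Promoters of Tlr2, Traf3, Nfkb2 and Tnfaip3 are printed because these are the genes called higher whose RefSeq promoter window held a match to the kB consensus, the DNA motif of NF-kB dimers. That of Nfkbia, a textbook NF-kB target that was not called, is shown beside them. Each is 1 RefSeq window (GRCm38.p6) of 250 bases before to 50 bases after the transcription start, written 5′ to 3′ along the gene, with the kB matches in capitals. Tlr2 lies on the minus strand, window chr3:83841559-83841858. Traf3 lies on the plus strand, window chr12:111166120-111166419. Nfkb2 lies on the plus strand, window chr19:46304487-46304786, the most upstream of its 3 windows, all of which held a match. Tnfaip3 lies on the minus strand, window chr10:19015361-19015660, which was 1 of its 2 windows and the one with a match. Nfkbia lies on the minus strand, window chr12:55492598-55492897. The deposited gene models of Tlr2 and Tnfaip3 start further upstream than these RefSeq starts, at 83841767 and 19015657.
Tlr2: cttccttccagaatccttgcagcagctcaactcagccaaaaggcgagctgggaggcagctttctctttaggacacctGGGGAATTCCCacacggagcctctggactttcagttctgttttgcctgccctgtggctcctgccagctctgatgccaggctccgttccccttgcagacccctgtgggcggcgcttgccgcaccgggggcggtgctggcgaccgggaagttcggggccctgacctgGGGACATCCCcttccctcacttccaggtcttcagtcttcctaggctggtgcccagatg
Traf3: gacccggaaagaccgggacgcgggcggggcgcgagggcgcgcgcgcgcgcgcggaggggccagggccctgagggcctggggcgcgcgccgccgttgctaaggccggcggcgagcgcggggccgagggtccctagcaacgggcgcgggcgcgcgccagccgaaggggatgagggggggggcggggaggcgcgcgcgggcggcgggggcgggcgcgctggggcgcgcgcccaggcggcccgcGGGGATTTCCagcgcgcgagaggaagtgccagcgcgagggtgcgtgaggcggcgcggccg
Nfkb2: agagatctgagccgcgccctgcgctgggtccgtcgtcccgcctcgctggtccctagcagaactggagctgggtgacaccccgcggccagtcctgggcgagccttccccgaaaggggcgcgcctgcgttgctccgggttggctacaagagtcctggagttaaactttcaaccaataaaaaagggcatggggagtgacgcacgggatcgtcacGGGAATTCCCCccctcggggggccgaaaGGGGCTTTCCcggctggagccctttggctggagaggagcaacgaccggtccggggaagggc
Tnfaip3: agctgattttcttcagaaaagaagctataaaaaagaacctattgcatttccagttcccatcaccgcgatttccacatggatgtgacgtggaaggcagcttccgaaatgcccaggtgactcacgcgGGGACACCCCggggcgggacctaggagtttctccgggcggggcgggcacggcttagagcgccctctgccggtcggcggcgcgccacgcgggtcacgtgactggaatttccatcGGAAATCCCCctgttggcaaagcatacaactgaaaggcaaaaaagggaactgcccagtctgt
Nfkbia: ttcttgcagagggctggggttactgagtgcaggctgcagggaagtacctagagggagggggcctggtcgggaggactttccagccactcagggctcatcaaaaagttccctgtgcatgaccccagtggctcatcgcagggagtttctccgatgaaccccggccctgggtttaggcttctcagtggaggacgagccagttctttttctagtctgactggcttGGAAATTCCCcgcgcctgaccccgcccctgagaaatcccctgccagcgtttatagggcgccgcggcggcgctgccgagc

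A RefSeq window was found for 29 of the 38 genes, with 42 windows among them. On either strand, the kB consensus matched in 9 of the 29 genes, namely Tlr2, Tlr3, Irak1, Traf3, Nfkb2, Nfkbia, Nfkbie, Tnfaip3 and Il1r1, and in 12 of the 42 windows. Of all 32851 mouse windows, 8.46% held a match, and of all 27025 genes with a window, 9.55% did. Among genes called higher with a window, 4 of 8 held a match, and among tested genes not called, 5 of 17 did. The matches of Nfkb2 ran from -39 to -29 and from -11 to -2 relative to the start, and those of Tlr2 from -173 to -163 and from -8 to 2. In Tnfaip3 they ran from -125 to -116 and from -12 to -3, in Traf3 from -10 to -1 and in Nfkbia from -29 to -20. The AP-1 motif TGANTCA, searched on both strands, was in 7.81% of all windows and in 8.97% of all genes with a window. Among the 29 genes it was in Ikbkg, Il1rn, Nfkb2, Nfkbie, Tlr9 and Tnfaip3. It was in 4 of the 8 called genes with a window and in 1 of the 17 tested genes not called. Whether motif and call go together was not tested. The PU.1-type motif GAGGAAGT was in 3.2% of all windows and in 3.69% of all genes with a window. Among the 29 genes it was in Tlr1, Tlr9 and Traf3. In the printed windows neither motif overlapped a kB match. A match describes the sequence and does not show that a factor binds there.

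**Figure D2:**
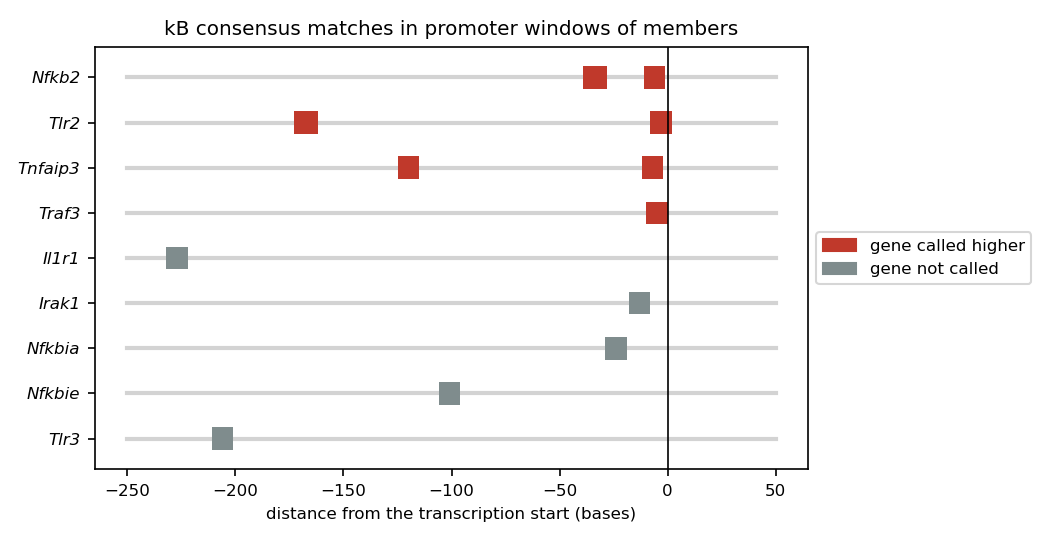
Grey lines are the promoter windows of the 9 genes with a kB consensus match, from 250 bases before to 50 bases after the transcription start, against distance from that start in bases. Coloured blocks are the matches, red for the 4 genes called higher in KO livers and grey for the 5 not called. Nfkb2, Tlr2 and Tnfaip3 have 2 blocks each, and those 3 genes and Traf3 have a block within 12 bases of the start.

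Receptors of bacterial surface molecules were at low levels. Tlr2 (ENSMUSG00000027995, chromosome 3, minus strand, 83836272 to 83841767, GRCm38), the receptor of bacterial lipoproteins, was at 4.98, 4.27 and 3.24 FPKM in KO mice 1, 2 and 3, against 1.68, 1.45 and 0.908 FPKM in control mice 1, 2 and 3. Every KO mouse was above every control mouse, and the lowest KO mouse was KO 3. The means were 4.17 ± 0.876 FPKM in KO livers and 1.35 ± 0.398 FPKM in control livers (SD, n = 3 each), a 3.09-fold difference and a log2 fold change of 1.14 ± 0.17 (limma, adjusted p = 0.0138). Tlr2 kept its call under 14 of 16 alternatives and lost it without KO 2 or without control 2, where the adjusted p reached at most 0.0566. Its partners in lipoprotein sensing are Tlr1 and Tlr6, which are near-identical over part of their length, and the sources used here do not say how fragments shared by such paralogs were counted. Tlr1 was at 2.24, 2.03 and 0.794 FPKM in KO mice, against 0.713, 0.623 and 0.342 FPKM in control mice (0.75 ± 0.24, adjusted p = 0.0755). Tlr6 was not tested, with 0.499, 0.579 and 0.299 FPKM in KO mice against 0.23, 0.169 and 0.12 FPKM in control mice. In both genes the groups did not overlap, and KO 3 was nearest to the controls.

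Tlr4 (ENSMUSG00000039005, chromosome 4, plus strand, 66827584 to 66930284), the lipopolysaccharide receptor, was at 1.54, 1.87 and 1.17 FPKM in KO mice 1, 2 and 3, against 0.606, 0.841 and 0.687 FPKM in control mice 1, 2 and 3. No overlap was seen, and all 3 control mice lay below 1 FPKM. The means of 1.53 ± 0.351 FPKM in KO livers and 0.711 ± 0.12 FPKM in control livers (SD, n = 3 each) differed 2.14-fold, with a log2 fold change of 0.55 ± 0.13 (limma, adjusted p = 0.038). With 1 mouse left out the adjusted p ranged from 0.0186 without KO 3 to 0.109 without control 3; the call was also lost without KO 1, control 1 or control 2, and without KO 2 the gene fell under the filter. Quantile normalization (0.0981) and a fit with no filter (0.0896) lost it too. Ly96 (ENSMUSG00000025779, chromosome 1, plus strand, 16688051 to 16709611) encodes MD-2, which holds lipopolysaccharide against TLR4. It was at 2.89, 3.97 and 4 FPKM in KO mice, against 2.46, 1.73 and 2.12 FPKM in control mice. KO 1 was the lowest KO mouse here and lay near control 1. The test was passed with a log2 fold change of 0.57 ± 0.14 (limma, adjusted p = 0.0376), but the adjusted p was 0.0836 after median-ratio rescaling, 0.171 after quantile normalization, 0.09 with no filter and 0.0629 by voom on estimated fragments. Of the fits without 1 mouse, that without KO 1 alone kept the call, over a range of 0.0439 to 0.124. Cd14, whose protein hands lipopolysaccharide to that complex, was at 7.43, 10.6 and 3.85 FPKM in KO mice, against 3.31, 2.93 and 1.86 FPKM in control mice. The groups did not overlap, KO 3 came close to control 1, and the log2 fold change of 1.10 ± 0.32 did not pass (limma, adjusted p = 0.0598). Tlr5, the flagellin receptor, had the highest level of the 9 receptor genes, at 5.32, 5.21 and 6.56 FPKM in KO mice against 4.1, 4.69 and 4.77 FPKM in control mice (0.27 ± 0.10, adjusted p = 0.112).

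Among receptors of nucleic acids in endosomes, Tlr8 passed the test. Tlr8 (ENSMUSG00000040522, chromosome X, minus strand, 167242696 to 167264329), a sensor of RNA in human cells, was at 2.52, 3.28 and 1.38 FPKM in KO mice 1, 2 and 3, against 0.921, 0.916 and 0.763 FPKM in control mice 1, 2 and 3. KO and control mice did not overlap, and the KO mice spread over a wider range than the control mice. The means were 2.39 ± 0.957 FPKM in KO livers and 0.867 ± 0.0898 FPKM in control livers (SD, n = 3 each), with a log2 fold change of 0.82 ± 0.21 (limma, adjusted p = 0.0432). The adjusted p was 0.00657 without KO 3, and leaving out any other mouse lost the call, at up to 0.123. It was also lost after quantile normalization (0.0649), with a pseudocount of 5 (0.055) and with no filter (0.104). Its neighbour Tlr7, a receptor of single-stranded RNA, was at 2.08, 3.87 and 1.36 FPKM in KO mice, against 0.659, 0.928 and 0.655 FPKM in control mice. Tlr7 showed the same order of mice as Tlr8 within the KO group and narrowly missed the threshold (0.91 ± 0.25, limma, adjusted p = 0.0531). Tlr9, the receptor of CpG DNA, was not tested, at 0.627, 0.939 and 0.444 FPKM in KO mice against 0.194, 0.327 and 0.0915 FPKM in control mice. Tlr3, which binds double-stranded RNA, overlapped between the groups, at 1.5 to 2.42 FPKM in KO mice and 0.978 to 1.72 FPKM in control mice (0.27 ± 0.17, adjusted p = 0.299), and it shares 381 exonic bases with Gm45542 on the opposite strand. Of the 7 receptor genes tested, 3 were called higher, beside 13.9% of all genes tested. Of the 7, 4 had passed the filter only through the KO mice.

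**Figure D3:**
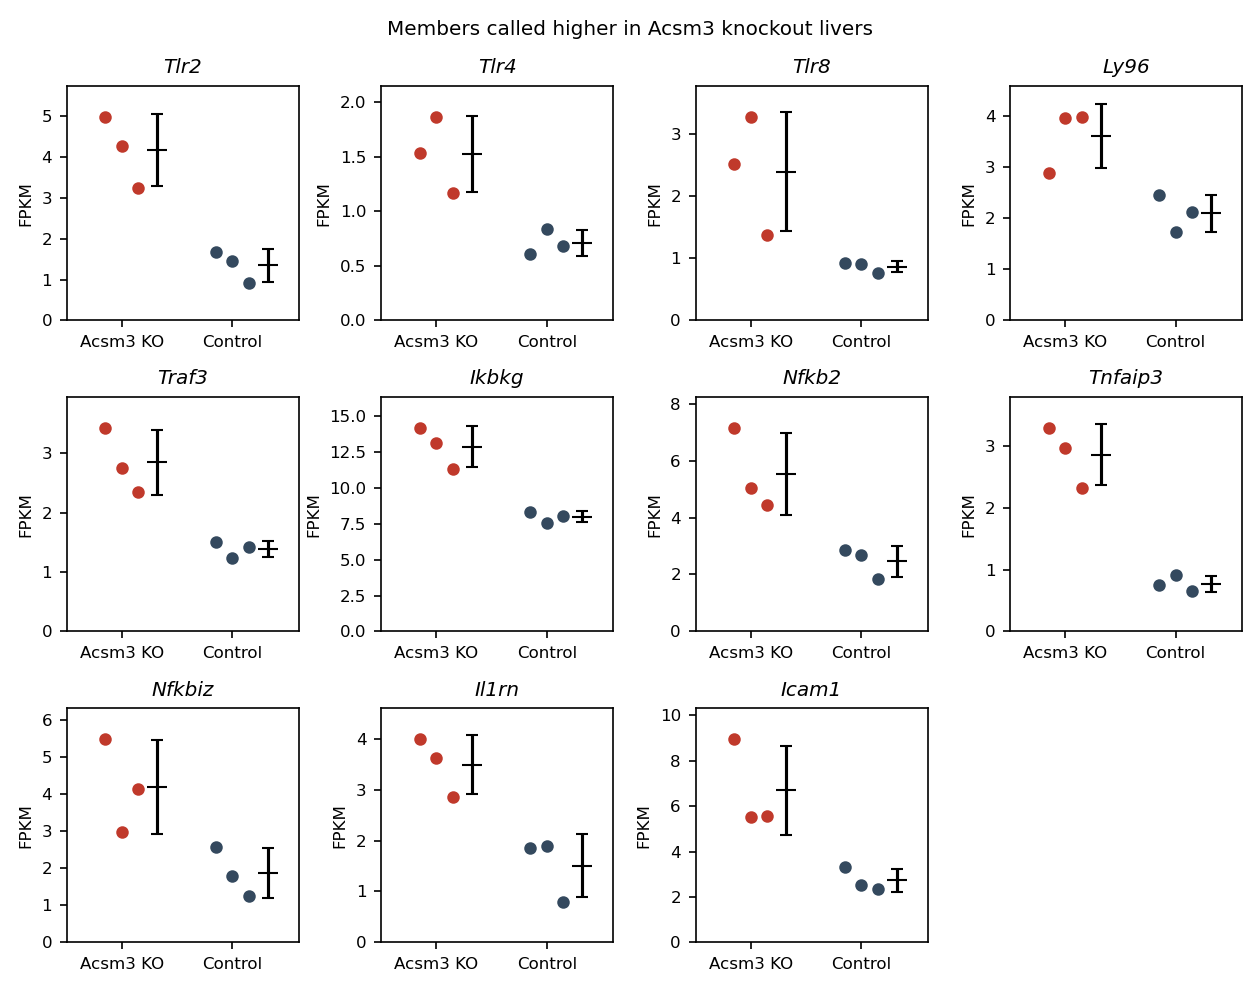
FPKM of the 11 genes called higher, 1 panel each with its own axis from 0. Points are mice 1, 2 and 3 in order, KO left of control, and the bar beside each group is its mean ± SD (n = 3). In every panel the 3 KO points lie above the 3 control points, from Ikbkg at 11.4 to 14.2 FPKM in KO livers and 7.57 to 8.34 FPKM in control livers down to Tlr4 at 1.17 to 1.87 FPKM in KO livers and 0.606 to 0.841 FPKM in control livers.

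Of the adaptor, the IRAK kinases and the TRAF ligases, 1 of the 7 genes tested was called, a share close to the 13.9% called higher of all genes tested. Traf3 (ENSMUSG00000021277, chromosome 12, plus strand, 111166370 to 111267153), whose protein steers receptor signals towards interferon genes and restrains noncanonical NF-kB, was at 3.43, 2.76 and 2.35 FPKM in KO mice 1, 2 and 3, against 1.5, 1.24 and 1.42 FPKM in control mice 1, 2 and 3. The groups lay well apart, with the lowest KO mouse above the highest control mouse by more than the whole range of the controls. The means of 2.85 ± 0.548 FPKM in KO livers and 1.39 ± 0.134 FPKM in control livers (SD, n = 3 each) gave a log2 fold change of 0.68 ± 0.12 (limma, adjusted p = 0.0204). Without KO 2 or any 1 of the control mice the adjusted p was over 0.05, at up to 0.0729, and with no filter it was 0.0566. Traf2, a ligase of TNF receptor signalling, was at 2.23 to 3.4 FPKM in KO mice and 1.84 to 2.05 FPKM in control mice (0.32 ± 0.13, adjusted p = 0.13). Traf6, the ligase that links the receptors to IKK, was at 4.09 to 4.33 FPKM in KO mice and 3.52 to 4.09 FPKM in control mice (0.12 ± 0.08, adjusted p = 0.301). Myd88, the adaptor of most Toll-like receptors, was at 7.3, 6.47 and 7.3 FPKM in KO mice, against 5.61, 5.81 and 5.19 FPKM in control mice. The groups did not overlap, but the difference was small, and its adjusted p of 0.05003 lay just over the threshold (0.30 ± 0.08, limma).

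The IRAK kinases, which act directly after MyD88, gave no call. Irak1 was at 14.2 to 15.2 FPKM in KO mice and 11.8 to 13.5 FPKM in control mice (0.20 ± 0.08, adjusted p = 0.116). Irak2 was at 6.09 to 9.01 FPKM in KO mice and 5.33 to 6.06 FPKM in control mice (0.30 ± 0.13, adjusted p = 0.161). Neither overlapped between the groups, though KO 2 lay just above the highest control mouse in Irak2. Irak4 overlapped, at 2.47 to 3.33 FPKM in KO mice and 2.21 to 2.89 FPKM in control mice (0.10 ± 0.12, adjusted p = 0.583). Irak3, which encodes the kinase-dead brake IRAK-M, was not tested, at 1.01, 1.1 and 0.723 FPKM in KO mice against 0.533, 0.619 and 0.502 FPKM in control mice. Some of these genes share exonic bases with a gene on the opposite strand in GENCODE M21, 290 bases of Myd88 with Acaa1a, 395 of Irak4 with Twf1 and 192 of Irak3 with Tmbim4. The sources used here do not say whether strand was kept in the libraries, so fragments in such stretches cannot be assigned to 1 gene. Over the 6 mice Acaa1a averaged 59.6 FPKM, Twf1 20.6 FPKM and Tmbim4 22.6 FPKM, each well above the gene it overlaps here.

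Of the IKK subunits, the scaffold gene rose. Ikbkg (ENSMUSG00000004221, chromosome X, plus strand, 74393290 to 74453854) encodes NEMO, which ties the kinase subunits to ubiquitin chains. It was at 14.2, 13.1 and 11.4 FPKM in KO mice 1, 2 and 3, against 8.34, 7.57 and 8.08 FPKM in control mice 1, 2 and 3. Both groups were tight, and the lowest KO mouse stood well above the highest control mouse. The means of 12.9 ± 1.44 FPKM in KO livers and 7.99 ± 0.39 FPKM in control livers (SD, n = 3 each) differed 1.61-fold, with a log2 fold change of 0.62 ± 0.10 (limma, adjusted p = 0.0138). The call was lost without KO 2, control 2 or control 3, at up to 0.0573, and kept in the other 14 of 17 alternatives. Ikbkg shares 418 exonic bases with G6pdx on the opposite strand, which is 5.15% of its exonic length. Ikbkb, the catalytic subunit of canonical signalling, was at 3.81, 3.28 and 3.24 FPKM in KO mice, against 2.96, 2.6 and 2.66 FPKM in control mice (0.25 ± 0.09, adjusted p = 0.0971). Chuk, the gene of the other kinase subunit, is not among the 38. It overlapped between the groups, at 34.9 to 37.8 FPKM in KO mice and 32.7 to 37.5 FPKM in control mice (0.04 ± 0.08, limma, adjusted p = 0.772).

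Among the NF-kB subunits, 1 of 3 tested genes was called higher, beside 13.9% of all genes tested. Nfkb2 passed the test and the classical dimer did not. Nfkb2 (ENSMUSG00000025225, chromosome 19, plus strand, 46304737 to 46312090) encodes p100, the precursor of the noncanonical subunit p52. It was at 7.16, 5.03 and 4.44 FPKM in KO mice 1, 2 and 3, against 2.85, 2.69 and 1.84 FPKM in control mice 1, 2 and 3. KO mice lay wholly above control mice, with KO 1 highest. The means of 5.54 ± 1.43 FPKM in KO livers and 2.46 ± 0.542 FPKM in control livers (SD, n = 3 each) differed 2.25-fold, with a log2 fold change of 0.91 ± 0.18 (limma, adjusted p = 0.0255). Leaving out KO 3 gave 0.0193, and leaving out any other mouse lost the call, at up to 0.0771, as did a fit with no filter (0.0668). Nfkb2 shares 299 exonic bases with Psd and 531 with AC114539.1, both on the opposite strand. Relb, which encodes the partner of p52, was not tested, at 2.23, 1.11 and 1.1 FPKM in KO mice against 0.583, 0.52 and 0.41 FPKM in control mice. KO 1 stood apart there as in Nfkb2. Rela, the gene of the p65 subunit, was at 20.1, 16.9 and 18.4 FPKM in KO mice, against 16.5, 14.3 and 13.9 FPKM in control mice (0.29 ± 0.10, adjusted p = 0.0834). Nfkb1, the gene of p105 and p50, was at 3.15, 3.47 and 2.5 FPKM in KO mice, against 2.13, 2.29 and 2.03 FPKM in control mice (0.35 ± 0.11, adjusted p = 0.0717). Neither overlapped between the groups, and Rela had the highest level of the 4 subunit genes in every mouse.

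**Figure D4:**
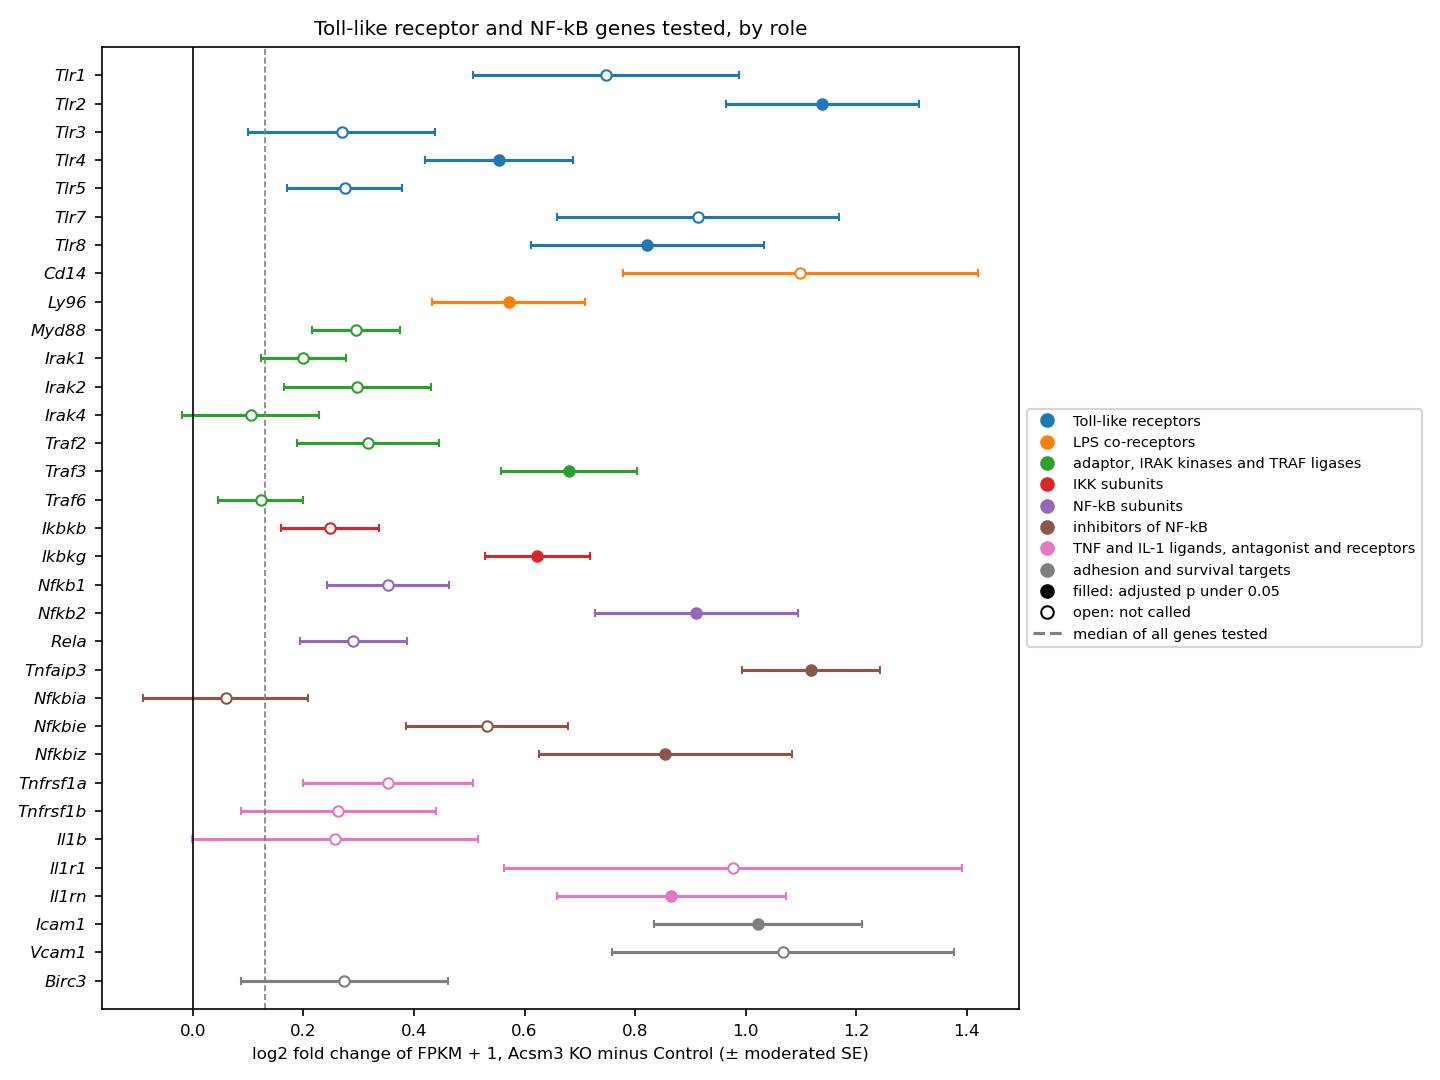
Points are log2 fold changes of FPKM + 1, KO minus control, with bars for the moderated SE, for the 33 genes tested, in order of role from receptors at the top. Filled points passed the test, and the dashed line marks the median of all genes tested, 0.13. Tlr2 lies farthest to the right at 1.14 and Nfkbia nearest to 0 at 0.06.

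Of the 4 genes of inhibitors and regulators of NF-kB, 2 were called higher, beside 13.9% called higher of all genes tested. Tnfaip3 (ENSMUSG00000019850, chromosome 10, minus strand, 19000910 to 19015657) encodes A20, a ubiquitin-editing enzyme that shuts NF-kB signalling down. It was at 3.3, 2.97 and 2.32 FPKM in KO mice 1, 2 and 3, against 0.745, 0.909 and 0.661 FPKM in control mice 1, 2 and 3. Every KO mouse was above 2 FPKM and every control mouse below 1 FPKM. The means of 2.86 ± 0.497 FPKM in KO livers and 0.772 ± 0.126 FPKM in control livers (SD, n = 3 each) differed 3.71-fold, with a log2 fold change of 1.12 ± 0.13 (limma, adjusted p = 0.00652). Tnfaip3 passed the filter only through the KO mice; with no filter at all its adjusted p was 0.0272. It was called under all 16 alternatives that tested it. With 1 mouse left out its adjusted p ranged from 0.00376 to 0.0356. Nfkbiz (ENSMUSG00000035356, chromosome 16, minus strand, 55811375 to 55838899) encodes the nuclear protein IkB-zeta, which helps to transcribe some NF-kB targets. It was at 5.5, 2.97 and 4.14 FPKM in KO mice, against 2.58, 1.79 and 1.24 FPKM in control mice. KO 2 lay close to control 1, and the log2 fold change of 0.85 ± 0.23 (limma, adjusted p = 0.048) kept its call in 5 of 16 alternatives and with 0 of the 6 mice left out, where the adjusted p ranged from 0.0553 to 0.129. Among the settings that lost it were median-ratio rescaling (0.0593) and quantile normalization (0.0877).

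Nfkbia, which encodes IkB-alpha, the inhibitor that NF-kB most directly switches on, was at 31, 31.7 and 21.5 FPKM in KO mice 1, 2 and 3, against 27.2, 27 and 25.3 FPKM in control mice 1, 2 and 3. The groups overlapped, with KO 3 below all controls and the other KO mice above them. At 0.06 ± 0.15 (limma, adjusted p = 0.807) the log2 fold change was the smallest of the 33. Nfkbie, the gene of IkB-epsilon, was at 2.76, 1.83 and 1.74 FPKM in KO mice, against 0.985, 1.1 and 1.31 FPKM in control mice. The groups did not overlap, and the test narrowly missed the threshold (0.53 ± 0.15, limma, adjusted p = 0.0512).

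Of the 5 TNF and IL-1 ligand, antagonist and receptor genes tested, 1 was called higher, beside 13.9% of all genes tested. The antagonist gene passed, Il1b did not, and Tnf was below the filter. Il1rn (ENSMUSG00000026981, chromosome 2, plus strand, 24336853 to 24351494), the gene of the IL-1 receptor antagonist, was at 4, 3.62 and 2.85 FPKM in KO mice 1, 2 and 3, against 1.85, 1.88 and 0.793 FPKM in control mice 1, 2 and 3. All KO mice were above all control mice, and control 3 was the lowest mouse. The means of 3.49 ± 0.588 FPKM in KO livers and 1.51 ± 0.619 FPKM in control livers (SD, n = 3 each) gave a log2 fold change of 0.87 ± 0.21 (limma, adjusted p = 0.0368). Only the fit without KO 3 kept the call when 1 mouse was left out, over a range of 0.0361 to 0.114, and with no filter the adjusted p was 0.0896. Il1b, the gene of the ligand it opposes, was at 2.42, 1.41 and 1.59 FPKM in KO mice, against 2.37, 1.09 and 0.768 FPKM in control mice. KO 1 and control 1 were the highest of their groups and almost level, and the difference did not pass (0.26 ± 0.26, limma, adjusted p = 0.515). Tnf was not tested, at 0.392, 0.439 and 0.226 FPKM in KO mice against 0.187, 0.0385 and 0.0388 FPKM in control mice. Those values rest on an estimated 10, 11 and 6 fragments in KO mice and 5, 1 and 1 fragments in control mice, too few to compare.

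The receptors of these ligands were at higher levels and overlapped between the groups. Tnfrsf1a, the gene of the widely expressed TNF receptor, was at 39.6, 36.7 and 27.2 FPKM in KO mice, against 28.1, 28.3 and 23.3 FPKM in control mice (0.35 ± 0.15, adjusted p = 0.15). Tnfrsf1b, the gene of the TNF receptor found mainly on leukocytes and endothelium, was at 14.8, 16.7 and 10.5 FPKM in KO mice, against 10.1, 10.8 and 13.2 FPKM in control mice (0.26 ± 0.18, adjusted p = 0.325). In both, KO 3 lay within the range of the controls. Il1r1, the gene of the signalling IL-1 receptor, was at 10.6, 32.3 and 11.6 FPKM in KO mice, against 10.6, 6.2 and 6.65 FPKM in control mice. KO 2 stood far above the other 5 mice, and KO 1 was level with control 1 (0.98 ± 0.41, limma, adjusted p = 0.144).

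Of 3 classical NF-kB targets, Icam1 was called, beside 13.9% called higher of all genes tested. Icam1 (ENSMUSG00000037405, chromosome 9, plus strand, 21015985 to 21028817), a ligand of leukocyte integrins, was at 8.98, 5.53 and 5.57 FPKM in KO mice 1, 2 and 3, against 3.31, 2.52 and 2.36 FPKM in control mice 1, 2 and 3. All 3 KO values exceeded the 3 control values, and KO 1 was well above the other KO mice. The means of 6.69 ± 1.98 FPKM in KO livers and 2.73 ± 0.508 FPKM in control livers (SD, n = 3 each) differed 2.45-fold, with a log2 fold change of 1.02 ± 0.19 (limma, adjusted p = 0.0211). The call was lost without KO 2, control 2 or control 3, at up to 0.0745, and with no filter (0.0576). In Icam1, 511 exonic bases are shared with Gm47079 on the opposite strand. Vcam1, another adhesion molecule for leukocytes, was at 6.54, 14.4 and 5.46 FPKM in KO mice, against 2.87, 3.5 and 3.67 FPKM in control mice. The groups did not overlap, but the height of KO 2 widened the spread, and the difference did not pass (1.07 ± 0.31, limma, adjusted p = 0.0587). In KO 2 the B cell gene Ighm was also high, at 121 FPKM, against 4.02 and 14.1 FPKM in KO mice 1 and 3 and 7.02 to 19.6 FPKM in control mice. The part of these cells in the Il1r1 and Vcam1 values was not tested. Birc3, a survival gene with the close paralog Birc2, was at 5.24, 5.52 and 3.04 FPKM in KO mice, against 3.2, 3.59 and 3.81 FPKM in control mice (0.27 ± 0.19, adjusted p = 0.336). KO 3 was the lowest of all 6 mice in Birc3.

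A further 102 genes of the same pathway that are not among the 38 were examined by role. Of these 69 were tested, and 23 were higher and 1 was lower in KO livers, beside 13.9% higher and 2.61% lower among all genes tested. The median log2 fold change of the 69 was 0.28, and in 36 of the 69 the KO mice were all above the control mice, beside 33.9% of all genes tested. Of 9 tested genes of other Toll-like receptors and accessory proteins, 5 were higher. They included Tlr13, a receptor of bacterial ribosomal RNA (0.98 ± 0.25, adjusted p = 0.0433), Cd180, a relative of TLR4 (0.94 ± 0.23, adjusted p = 0.0391), which had passed the filter only through the KO mice, its partner Ly86 (0.70 ± 0.17, adjusted p = 0.0404) and Unc93b1, which escorts the nucleic acid receptors to endosomes (0.70 ± 0.16, adjusted p = 0.0321). Of 23 tested genes of other adaptors, kinases and ligases, 5 were higher. The transcription factor gene Irf5 was at 5.61, 5.11 and 3.09 FPKM in KO mice, against 1.87, 1.76 and 1.47 FPKM in control mice (1.02 ± 0.19, adjusted p = 0.0205). Ikbke, an IKK-related kinase of interferon induction, had a log2 fold change of 0.99 ± 0.18 (adjusted p = 0.0211), Ripk2, the kinase below NOD receptors, 0.72 ± 0.17 (adjusted p = 0.0368) and Pik3ap1, an adaptor to PI3-kinase, 0.64 ± 0.17 (adjusted p = 0.0453).

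Among other NF-kB proteins and brakes, 2 of 14 tested genes were higher, a share close to the 13.9% of all genes tested. Tnip1, which encodes a partner of A20, had a log2 fold change of 0.80 ± 0.19 (adjusted p = 0.0381), and Zc3h12a, whose product degrades cytokine mRNAs, 0.55 ± 0.09 (adjusted p = 0.0159). Of 6 tested genes among 18 of the TNF and IL-1 families, 2 were higher and 1 was lower. Il1a, an IL-1 ligand, was at 4.26, 3.18 and 2.63 FPKM in KO mice, against 1.74, 1.44 and 1.48 FPKM in control mice (0.76 ± 0.15, adjusted p = 0.0229), and Casp1, the protease that matures IL-1 beta, had a log2 fold change of 0.77 ± 0.20 (adjusted p = 0.0449). Il1rap, the co-receptor of the IL-1 receptor, was the only gene of the 102 called lower, at 13.2, 12.4 and 14.1 FPKM in KO mice against 17.4, 18.6 and 18.2 FPKM in control mice (-0.42 ± 0.07, adjusted p = 0.0186).

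Among other NF-kB target genes, 9 of 17 tested were higher and 0 lower, beside 13.9% and 2.61% of all genes tested. Of the 17, 4 had passed the filter only through the KO mice, as had 527 of all 10996 genes tested. The log2 fold change was above 0 in 14 of the 17 and below 0 in 3. Of all genes tested, 71.2% were above 0. Ccl2, the chemokine that draws monocytes, was at 5.7, 4.42 and 3.31 FPKM in KO mice 1, 2 and 3, against 0.699, 0.277 and 0.28 FPKM in control mice 1, 2 and 3. The groups lay far apart, with means that differed 10.7-fold and a log2 fold change of 1.94 ± 0.19 (limma, adjusted p = 0.00566). Ccl2 was 1 of the 4 genes that passed the filter only through the KO mice. Its control values rest on an estimated 13, 5 and 5 fragments. Cxcl1, a neutrophil chemokine, was at 13.3, 7.6 and 12.3 FPKM in KO mice, against 3.33, 3 and 1.66 FPKM in control mice (1.72 ± 0.25, limma, adjusted p = 0.0129). Every KO mouse was above all controls in both genes, and KO 3 was not the lowest KO mouse for Cxcl1. Cxcl10, a T cell chemokine, had a log2 fold change of 1.23 ± 0.19 (adjusted p = 0.0148) and Plau, the gene of urokinase, 1.16 ± 0.23 (adjusted p = 0.0236).

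Markers of the cells that carry this pathway also differed between the groups. In bulk liver RNA, more cells of a type and more RNA of a gene per cell cannot be told apart. The counts of markers called stand beside 13.9% higher and 2.61% lower among all genes tested. Of 11 macrophage and monocyte markers, 9 were tested and 8 were higher in KO livers, among them Gpnmb, Itgax, Cx3cr1 and Cd68. Of the 9, 5 (Gpnmb, Itgax, Cx3cr1, Ccr2 and Trem2) had passed the filter only through the KO mice, so they had to differ in order to be tested. The summed level of these 11 markers was 292, 294 and 154 FPKM in KO mice 1, 2 and 3, against 102, 121 and 71.1 FPKM in control mice 1, 2 and 3. Most of that sum was Lyz2, at 187, 187 and 99 FPKM in KO mice and 67.2, 81.7 and 42.6 FPKM in control mice. Cx3cr1, a chemokine receptor of monocytes, was at 2.34, 2.02 and 1.54 FPKM in KO mice, against 0.177, 0.126 and 0.155 FPKM in control mice (1.35 ± 0.13, limma, adjusted p = 0.00546). Like the sum of the 38 genes, the macrophage and monocyte sum was lowest in KO 3 among KO mice and lowest in control 3 among control mice. The same was true of the sums of resident Kupffer cell, neutrophil and sinusoidal endothelial markers and of the 102 other pathway genes. It was not true of the other marker lists. Resident Kupffer cell markers did not move together, since 3 of the 10 tested (Cd5l, C1qb and Folr2) were higher and 2 (Cd163 and Timd4) were lower. Their sum ranged from 288 to 540 FPKM in KO mice and from 203 to 291 FPKM in control mice.

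Of 9 neutrophil markers, 4 were tested and 3 (Csf3r, Retnlg and S100a8) were higher, all 3 of which had passed the filter only through the KO mice. Retnlg rests on few fragments, an estimated 17, 25 and 9 in KO mice and 1, 3 and 1 in control mice. For S100a8 these were 19, 20 and 12 in KO mice and 6, 7 and 3 in control mice. The other 5 markers lay below the filter, and Ly6g was listed at 0 in all 6 mice. The neutrophil sum was 4.42 to 11.6 FPKM in KO mice and 1.95 to 3.19 FPKM in control mice. Stellate cell markers were higher in 5 of 7 tested, 2 of which (Col1a1, called, and Des, not called) had passed the filter only through the KO mice, with sums of 72.4 to 92.1 FPKM in KO mice and 37.8 to 45.4 FPKM in control mice. Sinusoidal endothelial markers were higher in 3 of 8 tested, with sums of 85 to 109 FPKM in KO mice and 65.8 to 74.1 FPKM in control mice. Of 8 hepatocyte markers, Hnf4a and Trf were higher, Alb and Ttr were lower and 4 were not called. The hepatocyte sum was 29735 to 32576 FPKM in KO mice and 40086 to 48074 FPKM in control mice. Most of that sum was Alb alone, with means of 22584 FPKM in KO livers and 34484 FPKM in control livers. Markers of T and NK cells (sums of 2.52 to 4.7 FPKM in KO mice and 1.59 to 2.35 FPKM in control mice) and of cholangiocytes (1.99 to 2.69 FPKM in KO mice and 0.99 to 1.51 FPKM in control mice) all lay below the filter. Dendritic cell markers gave 0 calls in 1 gene tested, with sums of 3.4 to 4.67 FPKM in KO mice and 2.6 to 3 FPKM in control mice. B and plasma cell markers gave 0 calls in 2 genes tested, with sums of 5.87, 134 and 16.7 FPKM in KO mice 1, 2 and 3 against 9.72 to 22.5 FPKM in control mice. The part of any of these cell types in the values of the 38 genes was not tested.

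**Figure D5:**
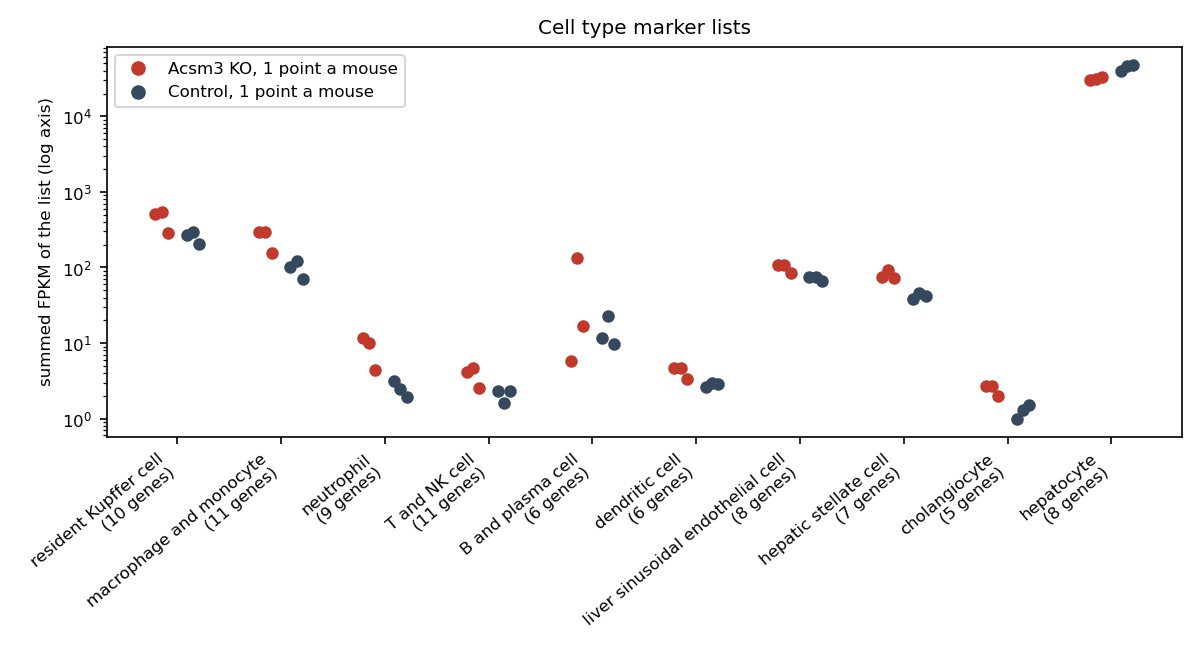
Summed FPKM of each cell type marker list on a log axis, with 1 point for each mouse in order 1, 2 and 3, KO in red left of control in dark blue. A sum follows its most abundant genes, such as Lyz2 for macrophages and monocytes and Alb for hepatocytes. The macrophage and monocyte sum lies between 154 and 294 FPKM in KO mice, above all control mice at 71.1 to 121 FPKM, while Kupffer sums touch and the B and plasma cell point of KO 2 stands alone at 134 FPKM.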

How the data were processed

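Liver RNA of 3 Acsm3 KO and 3 control mice was analysed from 1 deposited table of FPKM for 28450 genes. Per the submitters' processing notes, the build was GRCm38 and the tools were StringTie 1.3.0, HISAT2 2.0.4 and Bowtie2 2.2.6, with no roles or settings. The authors deposited FPKM, that is fragments scaled by gene length and library total; their text used here does not cover strandedness or multi-mapped fragments. Each column was matched to 1 sample title, and 0 other columns of per-sample values were present.

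FPKM were transformed as log2(FPKM + 1), and the 10996 genes whose mean reached 1 FPKM were fitted with limma 3.58.1 in R 4.3.3 (eBayes with a trend), KO minus control, with Benjamini-Hochberg adjustment over all of them and a threshold of 0.05. With 3 mice against 3, exact permutation gives no p under 0.1, so single values were given no such test. The members, lists and tests were chosen with earlier results of these data known. The text names all 38 members, Acsm3 and, in each other list, up to 4 genes that passed with the largest absolute log2 fold change. Ighm, Chuk, Lyz2, Ccr2, Trem2, Timd4, Des, Ly6g and the genes that overlap members were chosen after their values were seen. Other calls beyond 4 in a list are only counted.

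Fragments per gene were estimated from FPKM steps with GENCODE M21 exon lengths (28411 of 28450 identifiers found, 27192 at the same position), and 99.6% to 99.7% of values under 20 fragments came within 0.1 of a whole number. Alternatives, 16 planned and 1 added after seeing the data (voom on these fragments), are given in the closing section. The fit was also run on simulated data with known changes, independent noise and no shift of the typical gene. That run does not measure the rate of false calls in these data. Promoter windows came from RefSeq (GRCm38.p6). Tables and figures were made in Python 3.11.15 with matplotlib 3.10.9, numpy 2.4.6 and pandas 2.3.3.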

Additional observations from a re-analysis of the deposited data

How the results depend on the processing

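Of the 38 genes, 11 were called higher and 0 lower, and the count of lower calls was 0 under all alternatives run. The count higher was 9 after median-ratio rescaling, 14 and 9 with pseudocounts of 0.1 and 5, 11 without the trend and 11 with robust eBayes, 15 with the replicate block and 15 with voom on recovered fragments. It was 7 after quantile normalization, 3 with no filter, 2 with a filter at 5 FPKM, which leaves few members, and 20 with array weights. With 1 mouse left out the count ranged from 1 to 17: it was 6 without KO 1, 1 without KO 2, 17 without KO 3, 4 without control 1, 1 without control 2 and 2 without control 3. Those fits have fewer mice, and the cause was not tested.

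Over all genes tested, 1532 were higher and 287 lower. The counts higher and lower were 830 and 735 after median-ratio rescaling, 752 and 603 after quantile normalization, 544 and 106 with no filter and 2742 and 537 with array weights. With the filter at 5 FPKM, 848 were higher. Leaving out 1 mouse gave 226 to 1968 higher and 55 to 282 lower. Of the 102 other pathway genes, 23 were higher and 1 lower. The count higher was 15 after quantile normalization, 6 with no filter, 5 with the filter at 5 FPKM and 3 to 26 with 1 mouse left out. The count lower was 3 after either rescaling, 2 with the filter at 5 FPKM, array weights or the replicate block, and 0 to 1 with 1 mouse left out.

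Log2 fold changes turned sign for Irak4 (-0.017 after median-ratio rescaling, -0.095 after quantile normalization), Traf6 (-0.0092 and -0.061) and Nfkbia (-0.10 and -0.036). With 1 mouse left out, Nfkbia ranged from -0.036 without KO 2 to 0.23 without KO 3. None of these 3 was called in any fit. Same-numbered mice deviated together only weakly (correlations of 0.111, 0.0918 and 0.187), so the numbers were not taken to pair the mice. The replicate block gave 1672 genes higher and 346 lower; among the 38 it lost Ly96 (adjusted p = 0.057, limma) and added Tlr1, Tlr7, Cd14, Vcam1 and Tnfrsf1a (0.0188 to 0.0446). Each KO mouse correlated best with the control of its own number, though correlations this weak cannot show whether the numbers pair the mice. At 30.6 to 32.7 fragments for a gene of 2 kb at 1 FPKM, the 5 members under the filter could not be compared well, and 3 mice in each group limit all tests.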
